A study of Mus musculus with 1931 samples.

Results

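The genes described here are 10 that serve the change from a rosette to a lumen: *Podxl*, *Ezr*, *Slc9a3r1*, *Pard3*, *Pard6b*, *Prkci*, *Prkcz*, *Crb3*, *Cgn* and *Rab11a*. They were picked by name for this role, with earlier results of these data known, and all 10 were found in the deposited table of 20999 genes. Their RNA was compared between the compartments of Rosette-to-Lumen stage embryoids (RtL-embryoids, 3D aggregates of mouse embryonic stem cells, ESCs) and the matching cells grown in 2D.

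A cell that faces a lumen keeps an apical membrane apart from its basolateral one. The Par complex of Par3, Par6 and an atypical protein kinase C marks the apical side together with the Crumbs proteins, and tight junctions seal its border. Vesicles that carry the small GTPase *Rab11a* bring podocalyxin to the place where the lumen opens. Podocalyxin is strongly negatively charged and keeps facing membranes apart, and the adaptor NHERF1, the product of *Slc9a3r1*, couples it to ezrin and thereby to actin. In the mouse embryo the epiblast passes through such a rosette, while the visceral endoderm is an epithelium with an apical brush border that takes up nutrients. All values below are RNA levels, and the proteins and their position in the cell are not analysed here.

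The RtL-embryoids were built from 3 ESC lines. Kermit ESCs express GFP under the control of Oct3/4 and carry no inducible lineage factor. 5-Factor ESCs carry the trophoblast genes *Eomes*, *Cdx2*, *Gata3*, *Ets2* and *Tfap2c* as copies that doxycycline (DOX) induces, and mCherry-marked iGATA6 ESCs carry *Gata6* in the same way. DOX was used at 2 µg/ml and withdrawn before harvest. According to the methods, complete structures were picked by hand, pooled, dissociated and sorted by GFP, mCherry and the surface protein CD40. The 2D samples were Kermit ESCs kept in 2i/LIF without DOX on plate 7, 5-Factor ESCs induced in trophoblast stem cell (TSC) medium with FGF4 and heparin on plate 8 (iTSC), and iGATA6 ESCs induced in extraembryonic endoderm (XEN) cell medium on plate 9 (iXEN). Every condition is 1 pool or 1 culture, and each cell type comes from 1 line.

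The sorted 3D cells lie on plates 3, 4 and 5. The labels do not tie a sort gate to a well, and the cells were therefore grouped by plate columns: columns 1 to 8 (Epi columns), columns 9 to 16 (VE columns, for visceral endoderm) and columns 17 to 24 (ExE columns, for extraembryonic ectoderm). Wells with fewer than 2500 genes above 0 were left out. This kept 982 of 1149 wells in 3D, of which 32% were in the Epi, 32.1% in the VE and 35.9% in the ExE columns, and 424 of 782 wells in 2D, of which 33.5% were ESCs, 33.3% iXEN cells and 33.3% iTSC. Marker genes matched the column names: all 7 Epi, all 7 VE and all 8 ExE markers were highest among the 3D groups in their own columns. The ExE list includes the induced genes *Cdx2*, *Eomes*, *Tfap2c*, *Gata3* and *Ets2*. Levels do not tell inserted copies from the cells' own genes, so a match of these may mark the line. The other ExE markers, *Elf5*, *Fgfr2* and *Bmp4*, had 0.630, 0.770 and 0.943 TP10k in the ExE columns. Their next highest 3D means were 0.0227 (VE), 0.430 (VE) and 0.210 (Epi columns). The marker list with the highest score in a cell (the list that led it) was that of its columns in 98.1% of the cells of the Epi columns and 98.4% of those of the VE columns. In the ExE columns this held for 87.3%, while 25 cells were led by the VE list and 20 by the Epi list. Of the iTSC, 12 were led by the Epi list. The VE columns and iXEN cells also expressed parietal endoderm genes such as *Sparc* (59.9 and 105.7 TP10k), whereas *Thbd* of the same list was near 0 (0.00132 and 0.000581 TP10k), and markers of fibroblasts and trophoblast giant cells summed to 0.0478 and 0.00458 TP10k at most.

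Levels are given as TP10k, that is TPM, a unit of transcript abundance, rescaled to a sum of 10000 per cell. They are corrected for transcript length, so that levels of different genes can be compared. Read numbers cannot be had from TPM. What stands in for depth is the number of genes above 0, with medians of 4823, 5348 and 5396 in the Epi, VE and ExE columns and 9093.5, 8699 and 8537 in ESCs, iXEN cells and iTSC. Shares of cells with a value above 0 are therefore not comparable between 3D and 2D. The plates are technical splits of 1 pool. There was no biological replicate, no test was made, and each 3D mean is given with its means on plates 3, 4 and 5 as a measure of technical spread. A gene is called past 2-fold when its ratio of group means, with 0.01 TP10k added to each, exceeds 2 and has the same sign on the 3 plates. A value of 0 in a cell can be a transcript that was missed.

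Between the compartments, the VE columns had the highest 3D level of 5 members and the Epi columns the lowest level of 7, and how often all genes take these places was not counted. For *Podxl* this lowest place turned without the cells led by another marker list, with 0.0786 TP10k in the Epi and 0.0556 in the ExE columns (log2 ratio 0.43 in place of -0.64). The Epi columns were past 2-fold below the VE columns in 5 of the 10 members, namely *Podxl*, *Slc9a3r1*, *Pard6b*, *Prkcz* and *Rab11a*, and above them in 0. The background was every gene detected in 10% or more of the cells of one of the groups, and of these 10662 genes 30.2% passed the same limit, 15.1% in each direction. Against the ExE columns the Epi columns were lower in 5 members (*Ezr*, *Pard3*, *Pard6b*, *Prkcz* and *Rab11a*) and higher in 0, where 22.2% of 10886 genes passed, 14.1% downwards and 8.08% upwards. Between VE and ExE columns 3 members passed, *Podxl* and *Slc9a3r1* higher and *Ezr* lower in the VE columns, beside 21.9% of 10836 genes (7.90% higher, 14% lower). The median log2 ratio of the members was -0.98 for Epi over VE columns, -0.97 for Epi over ExE columns and 0.31 for VE over ExE columns, and that of all genes compared was 0.063, -0.094 and -0.14.

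**Figure D1:**
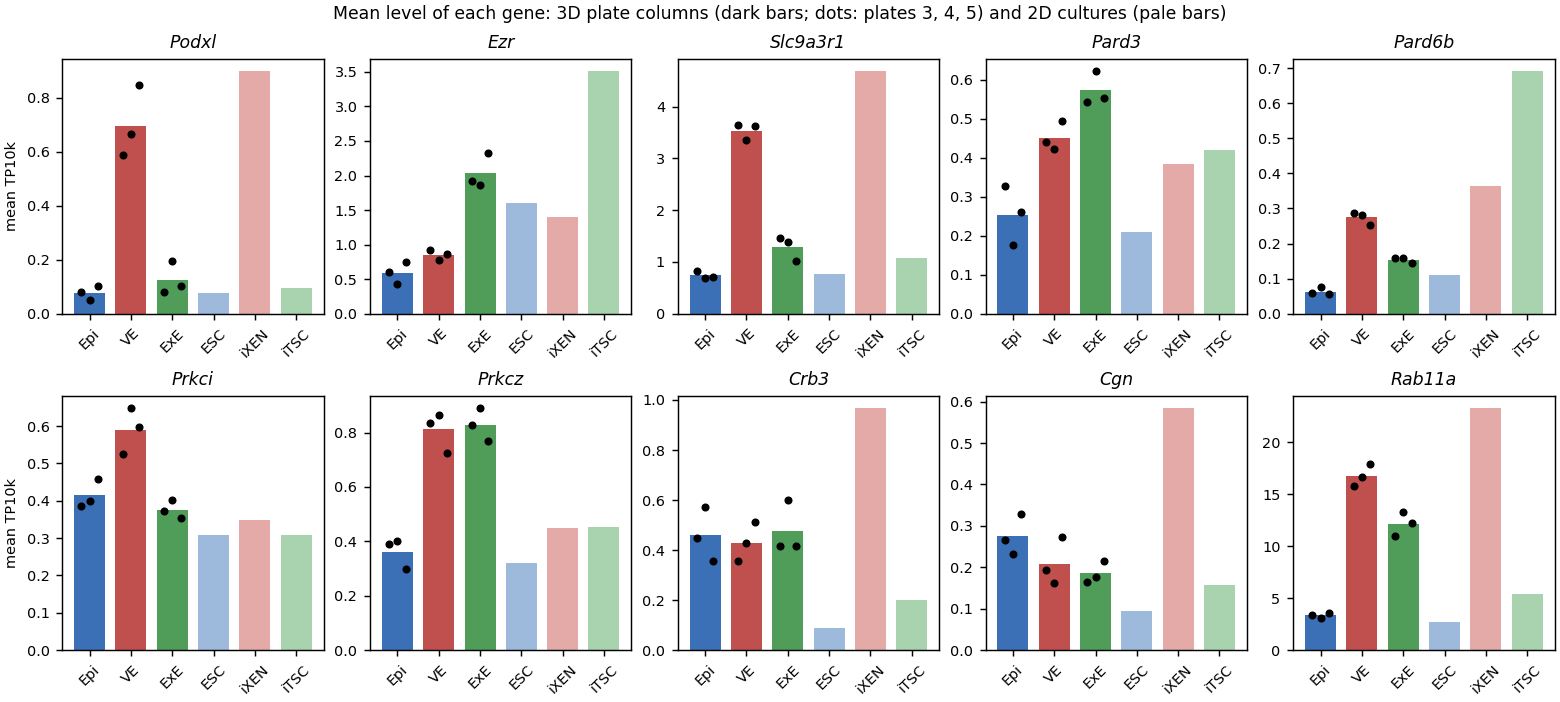
Mean TP10k of each of the 10 genes (y axis, linear from 0, own scale per gene) in the 3D plate columns (dark bars) and 2D cultures (pale bars); dots are the means on plates 3, 4 and 5. *Podxl*, *Slc9a3r1* and *Rab11a* were high in the VE columns and highest in iXEN cells, with 0.899, 4.69 and 23.3 TP10k, while *Ezr* and *Pard6b* were highest in iTSC with 3.51 and 0.692 TP10k.

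*Podxl*, which encodes podocalyxin (chromosome 6, 31519488 to 31563981, minus strand, GRCm38), showed the widest range of the 10 genes, 11.8-fold between the highest and lowest group. Its mean was 0.0771 TP10k in the Epi columns, 0.0784, 0.0498 and 0.103 on plates 3, 4 and 5. In the VE columns it was 0.694 TP10k (0.586, 0.667 and 0.848), and in the ExE columns 0.125 TP10k (0.0798, 0.195 and 0.103). The 3 plates of the VE columns lay above all plates of the other columns, and those of the Epi and ExE columns overlapped. In 2D the means were 0.899 TP10k in iXEN cells, 0.0960 in iTSC and 0.0760 in ESCs. The Epi columns thus had 8.09-fold less *Podxl* RNA than the VE columns (log2 ratio -3.02, plates -3.50 to -2.76), whereas Epi columns and ESCs differed by a log2 ratio of 0.018 (plates -0.53 to 0.40), which is within the spread of the plates. The VE columns had 5.20-fold more than the ExE columns (log2 ratio 2.38, plates 1.73 to 2.92), and without the cells led by another marker list the log2 ratio was 3.44.

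*Podxl* was found in 92.7% of the cells of the VE columns (exact Clopper-Pearson 95% interval 89.2 to 95.3%, counting error only). In the Epi columns it was found in 75 cells (23.9%, 19.3 to 29%), with a median of 0.192 TP10k among the cells above 0, compared to 0.577 in the VE columns. In the ExE columns it was found in 79 cells (22.4%, 18.1 to 27.1%), and the top 10% of all cells held 90% of its summed level. The marker lists placed much of this level: the 25 cells led by the VE list, 7.08% of the ExE columns, held 56.1% of the *Podxl* sum, with a mean of 0.994 TP10k. In the cells led by the ExE list the mean was 0.0556 TP10k. These 25 cells lay on all 3 plates, 7, 10 and 8 of them, so that the ExE columns had a low *Podxl* level outside a small number of VE-marked wells. Whether such wells hold VE cells or cells of mixed content was not tested.

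*Slc9a3r1*, the gene of the podocalyxin adaptor NHERF1 (chromosome 11, 115163341 to 115181181, plus strand), was likewise highest in iXEN cells and the VE columns, at a higher level than *Podxl*. Its mean was 3.54 TP10k in the VE columns (plates 3.65, 3.35 and 3.63), 1.29 in the ExE columns (1.46, 1.38 and 1.01) and 0.740 in the Epi columns (0.823, 0.693 and 0.708), with no overlap of plates between the 3 groups. In 2D it was 4.69 TP10k in iXEN cells, 1.08 in iTSC and 0.763 in ESCs. The Epi columns were 4.74-fold below the VE columns (log2 ratio -2.24, plates -2.34 to -2.14), and the VE columns were 2.73-fold above the ExE columns (log2 ratio 1.45, plates 1.27 to 1.84). As for *Podxl*, the ExE value was carried in part by the 25 cells led by the VE list, at 5.73 TP10k and with 31.5% of the sum, compared to 0.917 TP10k in the cells led by the ExE list. Its paralogue *Slc9a3r2*, which encodes NHERF2, was arranged differently, with 0.561 TP10k in ESCs, 0.269 and 0.259 in the Epi and VE columns, 0.147 in iXEN cells, 0.127 in the ExE columns and 0.0983 in iTSC. The ratio of *Slc9a3r1* to *Slc9a3r2* was 1.36 in ESCs, 2.75 in the Epi columns, 13.7 in the VE columns and 31.9 in iXEN cells. It was also high in the ExE columns (10.1) and iTSC (10.9).

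*Ezr* encodes ezrin, which ties apical membrane proteins to actin filaments (chromosome 17, 6738041 to 6782784, minus strand, overlapping *Sytl3* on the other strand, which reached 0.0443 TP10k at most). Its order of groups differed from that of its partners, with the highest levels in iTSC and the ExE columns. The mean was 2.03 TP10k in the ExE columns (plates 1.92, 1.86 and 2.33), 0.853 in the VE columns (0.917, 0.773 and 0.867) and 0.593 in the Epi columns (0.605, 0.431 and 0.745). All plates of the ExE columns lay above those of the other columns, and every plate of the VE columns lay above every plate of the Epi columns by a smaller distance, with log2 ratios of -0.83 to -0.22 for Epi over VE on the same plate. In 2D the mean was 3.51 TP10k in iTSC, 1.60 in ESCs and 1.40 in iXEN cells. *Ezr* was 3.38-fold lower in the Epi than in the ExE columns (log2 ratio -1.76) and 2.37-fold lower in the VE than in the ExE columns (log2 ratio -1.24, plates -1.42 to -1.06). The cells of the ExE columns led by the ExE list had 2.08 TP10k and those led by the VE list 1.42. The level of *Slc9a3r1* relative to *Ezr* was thus 4.15 in the VE columns and 3.34 in iXEN cells, but 0.634 in the ExE columns and 0.306 in iTSC. Of the other ERM genes, *Rdx* (radixin) ranged from 0.818 TP10k in ESCs to 1.54 in the ExE columns, and *Msn* (moesin) from 0.120 in iXEN cells to 0.568 in iTSC.

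**Figure D2:**
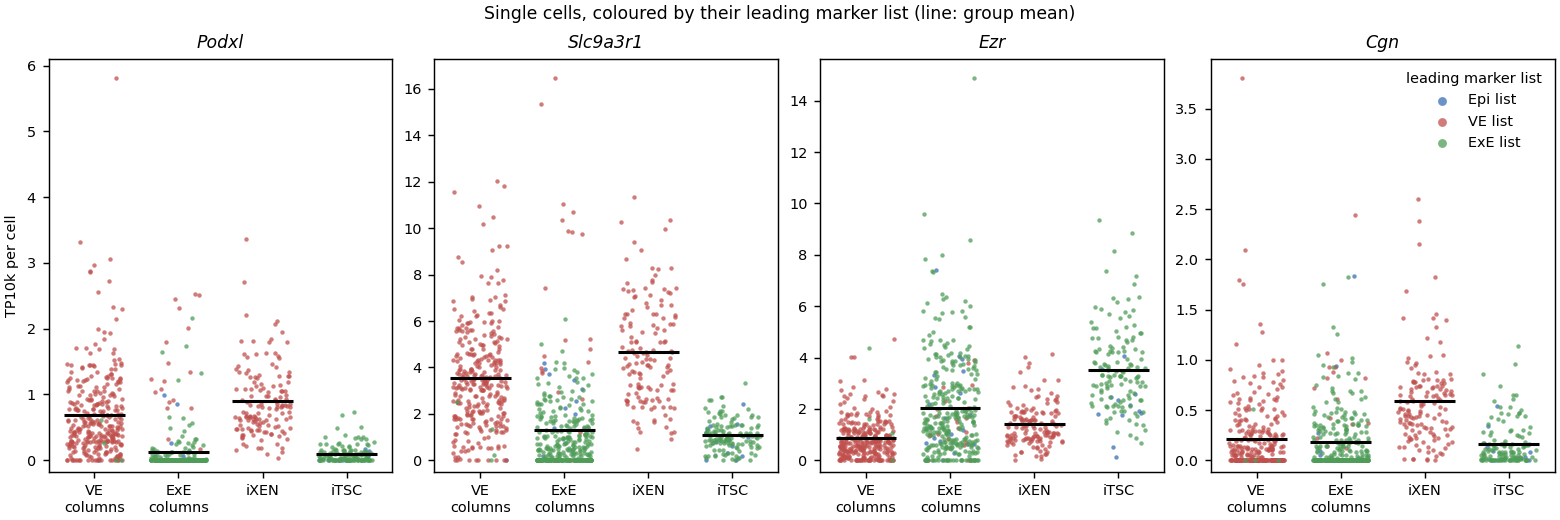
TP10k of single cells (y axis, linear) for *Podxl*, *Slc9a3r1*, *Ezr* and *Cgn* in the VE columns, ExE columns, iXEN cells and iTSC; each point is a cell, its colour the marker list that leads it, and the line is the group mean. The 25 cells of the ExE columns led by the VE list (red points among green) reached the *Podxl* and *Slc9a3r1* levels of the VE columns, with means of 0.994 and 5.73 TP10k, whereas for *Ezr* their mean of 1.42 TP10k lay below the 2.08 of the cells led by the ExE list.

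*Rab11a* encodes the GTPase of the recycling vesicles that deliver podocalyxin to the apical membrane (chromosome 9, 64715299 to 64737758, minus strand). It was the most abundant member in every group. Its mean was 16.7 TP10k in the VE columns (plates 15.8, 16.6 and 17.9), 12.2 in the ExE columns (11, 13.3 and 12.3) and 3.34 in the Epi columns (3.37, 3.14 and 3.53), and the plates of these groups did not overlap. In 2D it was 23.3 TP10k in iXEN cells, 5.38 in iTSC and 2.75 in ESCs. The level in the VE columns exceeded that of 99.55% of the 9863 genes found in at least 10% of their cells, and in the Epi columns that of 94.76% of 9731 genes. The Epi columns were 4.99-fold below the VE columns (log2 ratio -2.32, plates -2.40 to -2.23) and 3.63-fold below the ExE columns (log2 ratio -1.86, plates -2.08 to -1.70). The close paralogue *Rab11b* showed no such pattern and ranged from 1.26 TP10k in the VE columns to 1.87 in the ExE columns, so that the ratio of *Rab11a* to *Rab11b* ran from 1.90 in ESCs and 2.41 in the Epi columns to 13.3 in the VE columns and 16.6 in iXEN cells. How the reads that both paralogues share were divided depends on the authors' pseudoalignment.

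**Figure D3:**
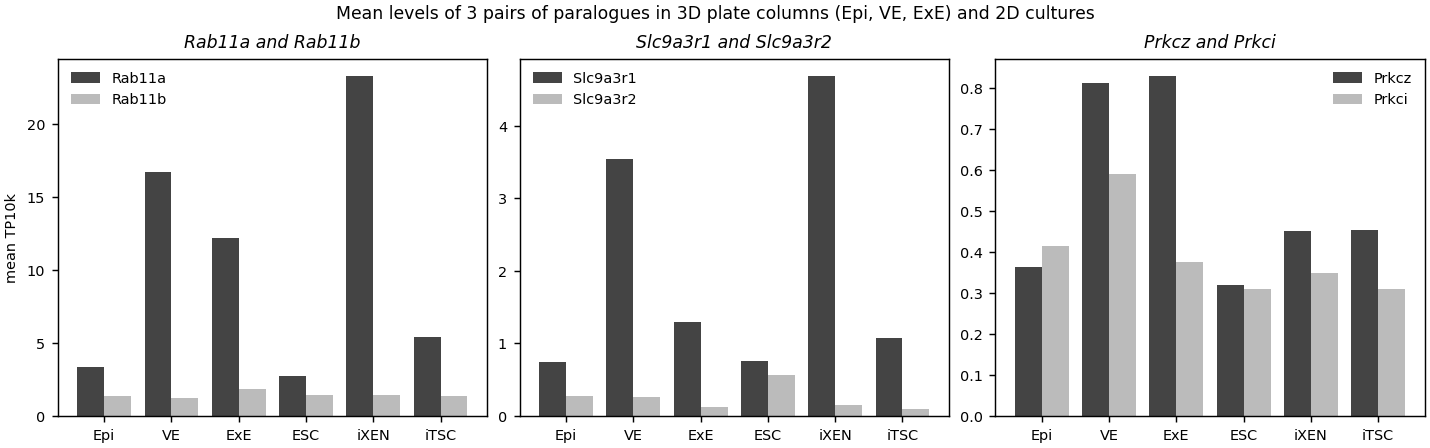
Mean TP10k (y axis, linear from 0) of *Rab11a* and *Rab11b*, *Slc9a3r1* and *Slc9a3r2*, and *Prkcz* and *Prkci* in the 3D plate columns (Epi, VE, ExE) and in ESCs, iXEN cells and iTSC. *Rab11a* reached 16.7 and 23.3 TP10k in the VE columns and iXEN cells where *Rab11b* stayed at 1.26 and 1.40, and *Slc9a3r2* was highest in ESCs with 0.561 TP10k.

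The 250 bases before the start site are shown for *Slc9a3r1*, *Rab11a* and *Pard6b*, which were higher in the VE than in the Epi columns past 2-fold. Their letters can be compared with the GATA and AP-2 motifs. Motifs of the other induced factors, *Cdx2*, *Eomes* and *Ets2*, were not searched and are not marked. The sequences are from RefSeq (GRCm38.p6), whose promoter table gave 13 start sites for 9 of the 10 members, all but *Podxl*. Capitals mark the AP-2 motif GCCNNNGGC, which reads the same on both strands and is that of the *Tfap2c* family. The motif of GATA factors was searched on both strands as GATA with an A or T before it and an A or G after it.
*Slc9a3r1*, chr11:115163091-115163340, plus strand: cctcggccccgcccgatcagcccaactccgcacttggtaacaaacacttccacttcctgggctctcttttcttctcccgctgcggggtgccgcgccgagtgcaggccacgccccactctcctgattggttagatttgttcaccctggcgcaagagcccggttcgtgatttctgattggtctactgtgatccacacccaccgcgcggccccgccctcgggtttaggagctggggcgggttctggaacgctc
*Rab11a*, chr9:64737757-64738006, minus strand: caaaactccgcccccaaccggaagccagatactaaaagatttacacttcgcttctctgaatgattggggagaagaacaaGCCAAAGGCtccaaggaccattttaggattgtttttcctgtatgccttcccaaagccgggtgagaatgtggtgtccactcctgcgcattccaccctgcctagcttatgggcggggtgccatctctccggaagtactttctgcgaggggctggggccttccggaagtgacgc
*Pard6b*, chr2:168080754-168081003, plus strand: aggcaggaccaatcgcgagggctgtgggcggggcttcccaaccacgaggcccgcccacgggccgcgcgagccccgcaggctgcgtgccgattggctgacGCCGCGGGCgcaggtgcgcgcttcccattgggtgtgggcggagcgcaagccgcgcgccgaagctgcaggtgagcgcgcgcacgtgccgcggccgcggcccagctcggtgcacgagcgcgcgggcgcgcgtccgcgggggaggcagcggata
No GATA motif stood in these windows or in those of the other members, where 26.5% of all 32851 promoter windows held one, and 4 of the 13 windows (*Pard3*, *Pard6b*, *Prkcz* and *Rab11a*) held the AP-2 motif, beside 13.7% of all windows. These 4 windows had 79.2, 77.6, 70.8 and 53.6% G and C. The shares over all windows were not matched for base content, and the windows of *Crb3* overlap each other. A match or its absence describes these letters and says nothing of binding.

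In the Par complex the members differed in how they were spread. *Pard6b*, the gene of the Par6 adaptor that binds the atypical protein kinase C (chromosome 2, 168081004 to 168101203, plus strand), was the least abundant of the 10 genes in the Epi columns, with 0.0630 TP10k (plates 0.0588, 0.0753 and 0.0545). It was at 0.153 TP10k in the ExE columns (0.157, 0.158 and 0.145) and 0.275 in the VE columns (0.287, 0.282 and 0.254), again with no overlap of plates. In 2D it was at 0.110 TP10k in ESCs, 0.364 in iXEN cells and 0.692 in iTSC, an 11-fold range between the Epi columns and iTSC. The share of cells with *Pard6b* was 20.4% (16.1 to 25.3%) in the Epi columns, 38.2% (33.2 to 43.5%) in the ExE columns and 66.7% (61.2 to 71.9%) in the VE columns. These shares also follow depth. Among cells with 6000 to 8500 genes they were 39.4, 47.8 and 85%, with 33 cells of the Epi columns. *Pard6b* was the member in which trophoblast-induced cells of 3D and 2D differed most, at a log2 ratio of -2.10 (plates -2.18 to -2.07), which is 4.30-fold lower in 3D. The Epi columns lay 3.91-fold below the VE columns (log2 ratio -1.97) and 2.24-fold below the ExE columns (log2 ratio -1.16). The latter ratio was within 2-fold among cells with 6000 to 8500 genes (-0.82) and with 0.1 TP10k added to each mean (-0.64).

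*Pard3* encodes the scaffold that recruits the complex to the membrane and to junctions (chromosome 8, 127063893 to 127612286, plus strand). Its mean was 0.572 TP10k in the ExE columns (plates 0.543, 0.621 and 0.553), 0.451 in the VE columns (0.441, 0.422 and 0.494) and 0.253 in the Epi columns (0.327, 0.175 and 0.260), with no overlap of plates. ESCs had 0.209 TP10k, iXEN cells 0.384 and iTSC 0.420. Epi columns were 2.22-fold below ExE columns (log2 ratio -1.15, plates -1.77 to -0.72), and the log2 ratio was within 2-fold without plate 4 (-0.88) and with 0.1 TP10k added (-0.93). The log2 ratio of Epi to VE columns was -0.81 (plates -1.22 to -0.42), but 1 cell of the Epi columns at 11.3 TP10k held 14.3% of the group's sum. It went to -1.01 without the 6 and 5 cells of these columns that another marker list led, to -1.04 without plate 3, and to -1.07 both with a minimum of 4000 genes and with means of ln values. Among cells with 6000 to 8500 genes it was -2.11, and that of Epi to ExE columns was -2.23, with 33 cells of the Epi columns in that window.

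*Prkci* and *Prkcz* encode the atypical protein kinases C iota and zeta, the enzymes of the complex. *Prkci* (chromosome 3, 30995747 to 31052959, plus strand) was the most even member, with a 1.91-fold range over the 6 groups. It was at 0.590 TP10k in the VE columns (plates 0.526, 0.649 and 0.598), 0.415 in the Epi columns (0.386, 0.400 and 0.457) and 0.376 in the ExE columns (0.371, 0.401 and 0.355), the latter pair with overlapping plates, and between 0.309 and 0.348 in the 3 cultures. *Prkcz* (chromosome 4, 155260129 to 155361361, minus strand) was at 0.829 TP10k in the ExE columns (0.827, 0.891 and 0.768) and 0.811 in the VE columns (0.835, 0.864 and 0.726), which did not differ beyond the plates, and at 0.363 in the Epi columns (0.392, 0.400 and 0.297). It was at 0.319 TP10k in ESCs, 0.450 in iXEN cells and 0.453 in iTSC. Epi columns were thus 2.20-fold below VE columns and 2.25-fold below ExE columns in *Prkcz*, whereas for *Prkci* the log2 ratios were -0.50 and 0.14. The ratio of *Prkcz* to *Prkci* was 0.874 in the Epi columns, 1.38 in the VE columns and 2.21 in the ExE columns. Among cells with 6000 to 8500 genes the *Prkcz* log2 ratios of Epi to VE and to ExE columns were -0.63 for each, within 2-fold, and that of Epi to VE columns was -0.98 with 0.1 TP10k added.

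*Crb3*, the gene of the small Crumbs protein of epithelia (chromosome 17, 57059105 to 57065918, plus strand), did not separate the compartments. Its means were 0.460 TP10k in the Epi columns (plates 0.450, 0.574 and 0.356), 0.429 in the VE columns (0.358, 0.428 and 0.511) and 0.477 in the ExE columns (0.417, 0.599 and 0.417), and all of these overlapped. It was found in 29.9% (24.9 to 35.3%), 32.1% (26.9 to 37.5%) and 36.5% (31.5 to 41.8%) of the cells, and in each group the top 10% of cells held 55.1 to 68.7% of the sum. The 2D cultures spread far wider, with 0.0891 TP10k in ESCs, 0.202 in iTSC and 0.969 in iXEN cells, where 89.4% of the cells had a value. The gene overlaps *Slc25a23* and *Dennd1c* on the other strand, which reached 0.0872 and 0.0472 TP10k at most.

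*Cgn* encodes cingulin, a protein of tight junctions on their cytoplasmic side (chromosome 3, 94760069 to 94786492, minus strand). It was the only member with its highest 3D mean in the Epi columns, 0.275 TP10k (plates 0.266, 0.231 and 0.329), ahead of 0.208 in the VE columns (0.194, 0.162 and 0.273) and 0.185 in the ExE columns (0.164, 0.178 and 0.216). The Epi mean was higher on each plate, with log2 ratios of 0.26 to 0.49 over the VE columns and 0.36 to 0.66 over the ExE columns, both within 2-fold, and the ranges of plates of Epi and VE columns overlapped. In 2D the means were 0.0956 TP10k in ESCs, 0.158 in iTSC and 0.585 in iXEN cells. Within the ExE columns, the 25 cells led by the VE list had 0.482 TP10k and the cells led by the ExE list 0.163.

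In the comparison of 3D with 2D, the question was whether the compartments of the RtL-embryoids differ from the same lines in mono-culture. Medium, co-culture and plate differ together in these comparisons, and library batch, which the labels do not give, may differ as well. None of these can be told apart. For the Epi columns DOX differs as well, since it was in the medium of the RtL-embryoids and not of the ESCs. In the Epi columns against ESCs, 3 members passed 2-fold beside 14.6% of 13109 genes (8.38% higher, 6.25% lower in the Epi columns). *Crb3* was 4.75-fold higher (log2 ratio 2.25, plates 1.89 to 2.56) and *Cgn* 2.70-fold higher (log2 ratio 1.44, plates 1.19 to 1.68, but 0.94 with 0.1 TP10k added) in the Epi columns, and *Ezr* was 2.68-fold lower (log2 ratio -1.42, plates -1.87 to -1.10). The other 7 members lay between -0.71 and 0.41, with *Podxl* at 0.018, *Slc9a3r1* at -0.044 and *Rab11a* at 0.28.

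In the VE columns against iXEN cells, 2 members passed, beside 8.53% of 12248 genes (2.89% higher, 5.64% lower in the VE columns), and both were lower in 3D. *Crb3* was 2.23-fold lower (log2 ratio -1.16, plates -1.41 to -0.91) and *Cgn* 2.74-fold lower (log2 ratio -1.45, plates -1.79 to -1.07). These are the 2 genes that were higher in the Epi columns than in ESCs. *Podxl*, *Slc9a3r1* and *Rab11a* were lower in the VE columns within 2-fold, with log2 ratios of -0.37, -0.40 and -0.48 and a negative sign on each plate, while *Prkci* and *Prkcz* were higher within 2-fold, with 0.74 and 0.84.

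In the ExE columns against iTSC, 3 members passed beside 17% of 13012 genes (8.67% higher, 8.32% lower in the ExE columns). *Rab11a* was 2.26-fold higher (log2 ratio 1.18, plates 1.03 to 1.30) and *Crb3* 2.30-fold higher (log2 ratio 1.20, plates 1.01 to 1.52) in the ExE columns, while *Pard6b* was 4.30-fold lower. *Ezr* had a log2 ratio of -0.79 (plates -0.91 to -0.59). The *Rab11a* log2 ratio was 0.95 among cells with 6000 to 8500 genes, 0.97 with means of ln values and 0.32 with every well kept, and that of *Crb3* was 0.99 with means of ln values and 0.94 with 0.1 TP10k added. The 12 iTSC led by the Epi list had 4.73 TP10k of *Rab11a*, 2.10 of *Ezr* and 0.459 of *Pard6b*, compared to 5.44, 3.64 and 0.713 in those led by the ExE list.

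**Figure D4:**
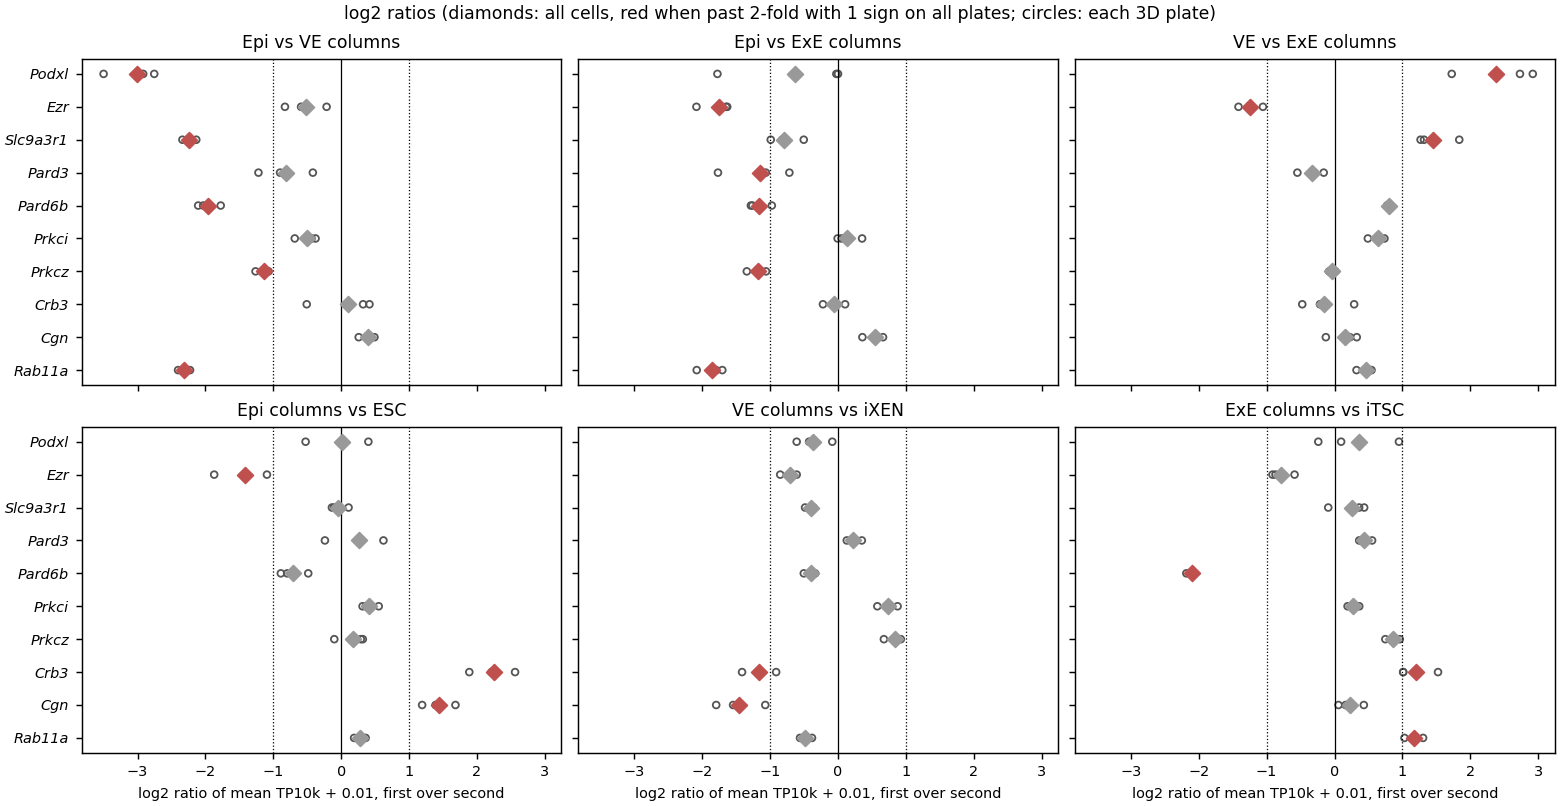
log2 ratios (x axis) of mean TP10k + 0.01 for the 10 genes (y axis) in 3 comparisons between 3D plate columns and 3 of 3D columns with 2D cultures; diamonds stand for all cells, red where past 2-fold (dotted lines) with 1 sign on every plate, and circles for plates 3, 4 and 5. *Podxl* fell farthest below 0 for Epi over VE columns (-3.02), and *Crb3* lay at 2.25 for Epi columns over ESCs but at -1.16 for VE columns over iXEN cells.

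Within 2D the induced cells were set against the Kermit ESCs, each as 1 culture without splits. Line, medium and plate differ along with induction here and cannot be told apart. In iXEN cells 6 members were past 2-fold above ESCs and 0 below, beside 31.4% of 13681 genes (16.7% higher, 14.7% lower). *Podxl* was 10.6-fold higher (log2 ratio 3.40), *Crb3* 9.88-fold (3.31), *Rab11a* 8.45-fold (3.08), *Slc9a3r1* 6.08-fold (2.60), *Cgn* 5.64-fold (2.50) and *Pard6b* 3.13-fold (1.65), and the median of the members was 2.07 on the log2 scale against -0.018 for all genes. *Ezr* did not pass and lay at -0.19. In iTSC 3 members were higher than in ESCs and 0 lower, beside 23.5% of 13788 genes (15.2% higher, 8.30% lower). The ESCs are the same in both comparisons. These were *Pard6b* (5.87-fold, log2 ratio 2.55), *Ezr* (2.18-fold, 1.13) and *Crb3* (2.14-fold, 1.10), and *Pard3* and *Rab11a* came just below the limit with log2 ratios of 0.97 and 0.97. The median log2 ratio of all genes was 0.14 here. Relative to it, *Ezr* and *Crb3* lay at 0.98 and 0.95, within 2-fold.

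Across single cells the members were related weakly. Over the 45 pairs of members, the Spearman correlation across cells had a median of 0.042 in the Epi columns (from -0.092 to 0.16), 0.055 in the VE columns (-0.24 to 0.29) and 0.066 in the ExE columns (-0.12 to 0.33). Such cells share library depth, and the number of members found in a cell rose with its number of genes (rho 0.56 to 0.59 in the 3D groups). The pair at 0.33 in the ExE columns was *Ezr* with *Slc9a3r1*, the ezrin and NHERF1 genes, with 0.29, 0.35 and 0.40 on the plates. The same pair had the highest value in iXEN cells, 0.55, where *Slc9a3r1* also stood at 0.42 with *Podxl* and 0.43 with *Rab11a*. At 0.35, *Ezr* was also the member closest to the mean ln(TP10k + 1) of 6 TSC genes in the ExE columns (0.39, 0.27 and 0.39 on the plates). *Rab11a* was lowest there, at -0.23 (-0.26, -0.35 and -0.058). Both values include the cells of the ExE columns led by another list. *Rab11a* was at 19.9 TP10k in those led by the VE list, 13.3 for the Epi list and 11.5 for the ExE list. For *Ezr* these means were 1.42, 2.03 and 2.08 TP10k. The correlations were not computed without these cells. With the same mean of 8 naive pluripotency genes in the Epi columns, values ran from -0.24 for *Podxl* (-0.27, -0.29 and -0.19) to 0.095 for *Prkci* (-0.066, 0.19 and 0.12). A median of 8 of the 10 members was found per cell in the VE columns, 6 in the ExE columns and 5 in the Epi columns, and 8, 10 and 8 in ESCs, iXEN cells and iTSC. In the depth window of 6000 to 8500 genes the medians were 8, 7 and 6 in the VE, ExE and Epi columns and 7, 10 and 8 in ESCs, iXEN cells and iTSC, with as few as 33 cells of the Epi columns and 20 ESCs in the window. All 10 members were found in 94 iXEN cells, 66.7% of those kept.

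Over the 12 units formed by the 3 column groups on 3 plates and the 3 cultures, *Podxl* and *Slc9a3r1* were the most alike members (Pearson r 0.974 of mean ln(TP10k + 1)), followed by *Crb3* and *Cgn* (0.866) and *Slc9a3r1* and *Rab11a* (0.844). As these units share pools and plates, r is given as a description. Of 8162 genes with a mean of at least 0.2 TP10k in some group, the 3 most like *Podxl* were *Retreg1*, *Mttp* and *Dab2* (r 0.993 each), of which *Dab2*, an endocytic adaptor of the endoderm, went from 0.0047 TP10k in the Epi columns to 8.07 in the VE columns and 13.4 in iXEN cells. Those most like *Slc9a3r1* were *Atp6v0a1* (a subunit of the vacuolar proton pump), *P4ha1* and *Pth1r* (the parathyroid hormone receptor), with r of 0.996, 0.991 and 0.990. Those most like *Rab11a* were *Tmem9b*, *Chmp2b* and *Clic1* (0.990, 0.984 and 0.982). *Ezr* went with *Gramd1a*, *Plekhg3* and *Mpc1* (0.957, 0.954 and 0.942), and *Pard6b* with *Tead4* (a transcription factor of the trophectoderm, 0.977), *Chst12* (0.960) and *Src* (0.959). *Pard3* was closest to *Ppfibp1*, *Btg2* and *Fkbp1a* (0.967, 0.958 and 0.958), *Prkci* to *Map2k7*, *Pdlim4* and *Pmepa1* (0.942, 0.934 and 0.934), *Prkcz* to *Ikbkb*, *D8Ertd738e* and *Srek1ip1* (0.949, 0.944 and 0.940), *Crb3* to *2610528J11Rik*, *Reep6* and *Gipc2* (0.946, 0.924 and 0.895), and *Cgn* to *Sycp3*, *Tspan8* and *2610528J11Rik* (0.932, 0.914 and 0.910).

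Other genes of the pathway were counted by list. Of the 17 genes of apical vesicle delivery compared between Epi and VE columns, 8 were lower and 1 higher in the Epi columns, beside 15.1% of all genes in each direction, with a median log2 ratio of -0.55 against 0.063 for all genes. Among the lower ones, *Myo5b*, the motor that moves Rab11 vesicles, had 0.00408 TP10k in the Epi and 0.340 in the VE columns, the apical syntaxin gene *Stx3* 0.842 and 2.00, and *Rab8a* 1.05 and 2.53. *Anxa2*, which encodes an annexin of apical membranes, had 0.0783 and 1.39 TP10k. Its level was similar in the ExE columns (1.35 TP10k), and in 2D it was 2.62 in iXEN cells and 2.48 in iTSC. The gene that was higher was *Rab25*, a close relative of *Rab11a*, at 0.160 TP10k in the Epi and 0.00600 in the VE columns, found in 13.1% and 1.59% of their cells. In iXEN cells over ESCs 8 of 18 genes of the list were higher and 1, again *Rab25*, was lower (0.00708 and 0.0756 TP10k), beside 16.7% of all genes higher and 14.7% lower. *Rab11a* and *Rab25* thus lay in opposite order in endoderm-type and pluripotent cells in 3D and in 2D. Against the ExE columns, 4 of 17 genes of the list were lower and 1 higher in the Epi columns, beside 14.1% and 8.08% of all genes. In the VE columns 4 of 16 were higher and 1 lower than in the ExE columns, beside 7.90% and 14% of all genes.

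Of the ezrin and podocalyxin partners, 0 of 4 passed between Epi and VE columns (median log2 ratio 0.24), beside 30.2% of all genes. Of 5 compared between Epi and ExE columns 2, *Slc9a3r2* and *Cd34*, were higher in the Epi columns, beside 8.08% of all genes. Both passed narrowly, with log2 ratios of 1.02 (plates 0.52 to 1.33) and 1.04 (0.40 to 1.30). *Cd34* was at low levels, 0.0407 and 0.0146 TP10k, and was found in 10.8% and 11.3% of the cells. In iXEN cells over ESCs 2 of 6 were higher, *Pdzk1* (0.208 and 0.00570 TP10k), which encodes another PDZ adaptor, and *Podxl2* (0.170 and 0.0360), a relative of *Podxl*, while *Msn* and *Slc9a3r2* were lower, where 16.7% of all genes were higher and 14.7% lower. The VE columns had only 0.0366 TP10k of *Pdzk1*, below the 0.112 of the ExE columns, and 0.0531 of *Podxl2*. Of 6 partners 2 were lower in the VE columns than in iXEN cells, beside 5.64% of all genes.

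In the Crumbs list, 2 of 4 genes were lower in the Epi than in the VE columns, *Patj* (0.0566 and 0.422 TP10k), a partner of the Crumbs complex, and *Crb2* (0.00273 and 0.0929), and the same 2 were lower than in the ExE columns (0.234 and 0.0582 TP10k there). Of all genes 15.1% and 14.1% were lower in these comparisons. Neither passed between VE and ExE columns, where 21.9% of all genes did. Of the 7 junction genes, *F11r*, the gene of the junction protein JAM-A that binds Par3, had 5.72 TP10k in the ExE columns, 0.907 in the Epi and 0.835 in the VE columns, and 2.20 in iTSC. *Cgnl1*, the paralogue of *Cgn*, was at 0.229 TP10k in the ExE columns and at 0.0999 and 0.0930 in the Epi and VE columns, and it was 1 of 3 junction genes of 7 that were higher in the Epi columns than in ESCs (0.0110 TP10k), next to *Afdn* and *Arhgef2*, beside 8.38% of all genes. Of the 8 basolateral genes, 1 (*Dlg3*, higher) passed between the Epi and VE columns, beside 15.1% of all genes higher. There were 0 between the Epi and ExE columns, 0 between the Epi columns and ESCs and 0 between the VE columns and iXEN cells. Of all genes 22.2, 14.6 and 8.53% passed there. Between VE and ExE columns 1 was lower in the VE columns (14% of all genes). In iXEN cells over ESCs 2 were lower (14.7%), and in iTSC over ESCs 1 was higher and 1 lower (15.2 and 8.30%). Between ExE columns and iTSC 3 passed, beside 8.32% of all genes lower and 8.67% higher. *Llgl2* (1.24 and 3.60 TP10k) and *Scrib* (0.210 and 0.462) were lower and *Dlg3* was higher in the ExE columns. Of the Par partners, 1 of 5, *Pard6a*, was lower in the Epi than in the VE columns at a log2 ratio of -1.02 (0.148 and 0.311 TP10k), beside 15.1% of all genes. Of 6 compared between Epi and ExE columns *Tiam1*, an activator of Rac that binds Par3, was higher in the Epi than in the ExE columns (0.118 and 0.0291), with plate log2 ratios from 0.16 to 3.53, beside 8.08% of all genes. The medians of the junction, basolateral and Par lists for Epi over VE columns were 0.23, -0.038 and -0.58 on the log2 scale, beside 0.063 for all genes, and that of the Crumbs list was -1.34.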

How the data were processed

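Single wells of RtL-embryoid pools and of 2D cultures were profiled by SMART-seq2. Per the methods, reads were pseudoaligned by the authors with kallisto against the mouse transcriptome (GRCm38, Gencode vM16), and the deposited TPM were summed per gene by the authors with tximport, without mitochondrial, ribosomal and pseudogenes. The submitters' processing notes also name bcl2fastq 2.20 and Seurat. Since removed genes left TPM sums of 108692 to 782286 per kept cell, values were rescaled to 10000 (TP10k). Cells with 2500 genes or more above 0 were used, 1406 of 1931.

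Group means were compared as log2 of (mean + 0.01 TP10k), and plates 3, 4 and 5 gave the technical spread. With 1 sample per condition no test was made. A gene was called past 2-fold if the plates shared its sign. All 10 members are named, other genes of the pathway by their lists, and similar genes as the 3 highest Pearson r per member. The members and lists were chosen with earlier results of these data known, and the promoter motifs after the values were seen. On the list of ezrin partners a misspelt symbol matched no row. Intervals are exact Clopper-Pearson (95%) and cover counting error only. Near-identical paralogues share reads, and reads were taken without strand. Positions are from Gencode vM21 (GRCm38). Calculations used Python 3.11.15, numpy 2.4.6, pandas 2.3.3, scipy 1.17.1 and matplotlib 3.10.9. The comparison of group means was tried on cells of the VE columns split at random, with known folds put into some genes. Alternatives were other pseudocounts, depth limits, scalings and cell sets.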

Additional observations from a re-analysis of the deposited data

Results flagged for a closer look

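*Crb3* moved in opposite directions between 3D and 2D depending on the cell type. Its log2 ratio was 2.25 for the Epi columns over ESCs and 1.20 for the ExE columns over iTSC, but -1.16 for the VE columns over iXEN cells, with 1 sign on all 3 plates in each case. The ratio to iTSC was within 2-fold with means of ln values (0.99) and with a pseudocount of 0.1 (0.94). The 3D means of 0.429 to 0.477 TP10k lay between the 2D means, which ran from 0.0891 TP10k in ESCs to 0.969 in iXEN cells.

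*Cgn* did the same in 2 of the comparisons, with a log2 ratio of 1.44 for the Epi columns over ESCs and -1.45 for the VE columns over iXEN cells, again with 1 sign on all plates. The former was 0.94, within 2-fold, with a pseudocount of 0.1. Here too the means of both 3D groups, 0.275 and 0.208 TP10k, lay between those of ESCs (0.0956) and iXEN cells (0.585). The difference between these effects was not tested, since each condition is 1 sample. 3D and 2D also differ in plate and number of genes per cell, and may differ in library batch, which the labels do not give.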

How the results depend on the processing

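No paired analysis was possible because no test was made, and the plate ratios between 3D groups were taken within a plate. The 30 member ratios past 2-fold kept their sign under every alternative run. All 30 stayed past 2-fold with a minimum of 4000 genes, without cells led by another marker list and without the 50 most abundant genes. There were 29 with every well above 0, 28 with TPM not rescaled, 28 when centred on the median of all genes, 27 with means of ln values, and 24 each with only cells of 6000 to 8500 genes and with a pseudocount of 0.1. Counts of members past 2-fold moved by over 1.5 times in these cases. With every well above 0 there were 5 for Epi columns over ESCs, 6 for ExE columns over iTSC and 6 for iTSC over ESCs, where the share of all genes past 2-fold also rose, to 37.7, 36.7 and 33.3%. For Epi over ExE columns there were 3 with cells of 6000 to 8500 genes and 3 with a pseudocount of 0.1, where the share of all genes fell to 17.3 and 10.3%. For iTSC over ESCs there was 1 with TPM not rescaled and 1 when centred, with 22.2 and 23.1% of all genes. The cause was not tested.

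Leaving out plates in turn gave 5 to 6 members for Epi over VE columns, 4 to 5 for Epi over ExE columns, 3 to 3 for VE over ExE columns, 3 to 3 for Epi columns over ESCs, 2 to 2 for VE columns over iXEN cells and 3 to 3 for ExE columns over iTSC. Centring moved the share of higher calls from 57.3 to 47.5% for Epi columns over ESCs and from 64.7 to 54.8% for iTSC over ESCs, and TPM not rescaled moved it to 55.1% for the latter and from 51.02 to 67.8% for ExE columns over iTSC. With every well above 0 and with means of ln values it was 82.5 and 29.95% for Epi columns over ESCs and 82.5 and 35.3% for ExE columns over iTSC, so that the split of all genes into higher and lower depends on these choices. With cells of 6000 to 8500 genes it was 42.8% for Epi columns over ESCs. Without plate 4 the log2 ratio of *Podxl* in Epi over ExE columns was 0.0004. *Rab11a* in ExE columns over iTSC fell to 0.32 on the log2 scale with every well kept, and the *Pard3* ratio of Epi columns to ESCs went from 0.26 to -1.43 among cells of 6000 to 8500 genes. Depth is known only as genes above 0, which limits all shares of cells with a transcript.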
